A study of Homo sapiens with 11 samples.

Results

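MHC class I antigen presentation was examined through 9 genes of the deposited table of 20500 entries, chosen by symbol: TAP1, TAP2, TAPBP, PSMB9, HLA-B, HLA-C, HLA-E, HLA-F and B2M. All 9 were found in the table and all 9 passed the filter on low values, with at least 131 units in every everolimus library and at least 124.5 units in every control. The cells were 786-0, an established human renal carcinoma line, of the clear cell type, without working VHL. The 6 control samples were kept in DMSO vehicle and the 5 everolimus samples in DMSO with everolimus, a rapamycin derivative that inhibits mTOR complex 1, at a concentration the labels write as "10um", all for 4 h. Whether the replicates were separate cultures is not in the labels, and the p-values speak for the spread among these samples alone, and that spread may be technical. In bulk RNA a change in the share of cells that express a gene and a change in RNA per cell cannot be told apart.

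MHC class I molecules show peptides from inside the cell to CD8 T cells and to natural killer cells. Peptides cut by the proteasome, including its inducible form, are pumped into the endoplasmic reticulum by the TAP transporter, loaded with the help of tapasin onto a heavy chain paired with beta-2-microglobulin, and carried to the surface. The genes of this pathway are known to be induced together by interferon gamma and, in part, by NF-kappaB, through binding sites for interferon regulatory factors (IRF), NF-kappaB and the RFX and NLRC5 complex near their starts.

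The promoter windows of the members are shown as a description of sequence. Whether they bear on the unequal changes of the members was not tested. RefSeq (GRCh38.p14) windows of 300 bases, 250 before and 50 after the transcript start, were matched by symbol for 8 of the 9 members, TAP1 with 2 windows of which the upstream one is shown; the files themselves are on hg19. HLA-E is named only. Capitals mark each match, on either strand, to the kappaB consensus or to the IRF pattern, a GAAA repeated after 2 bases of any kind. Matches may overlap, and base 251 of each window is the transcript start.
TAP1 (chr6:32853655-32853954, minus strand): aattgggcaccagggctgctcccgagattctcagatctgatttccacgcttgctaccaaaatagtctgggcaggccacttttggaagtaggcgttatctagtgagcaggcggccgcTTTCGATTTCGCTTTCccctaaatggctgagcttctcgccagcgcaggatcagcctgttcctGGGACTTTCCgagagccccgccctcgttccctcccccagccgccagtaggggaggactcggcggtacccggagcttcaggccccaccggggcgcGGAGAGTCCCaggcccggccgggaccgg
TAPBP (chr6:33314029-33314328, minus strand): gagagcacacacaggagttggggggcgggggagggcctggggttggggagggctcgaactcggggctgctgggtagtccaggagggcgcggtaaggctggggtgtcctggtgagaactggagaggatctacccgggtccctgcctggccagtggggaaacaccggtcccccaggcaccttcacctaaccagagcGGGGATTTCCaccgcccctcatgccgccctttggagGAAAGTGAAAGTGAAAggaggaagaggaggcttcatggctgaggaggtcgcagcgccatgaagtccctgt
HLA-B (chr6:31357130-31357429, minus strand): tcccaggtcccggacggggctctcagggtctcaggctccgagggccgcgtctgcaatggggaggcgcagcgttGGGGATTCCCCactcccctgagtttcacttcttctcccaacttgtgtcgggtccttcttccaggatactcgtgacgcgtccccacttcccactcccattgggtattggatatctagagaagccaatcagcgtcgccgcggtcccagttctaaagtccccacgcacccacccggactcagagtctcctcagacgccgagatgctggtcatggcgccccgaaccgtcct
HLA-C (chr6:31272043-31272342, minus strand): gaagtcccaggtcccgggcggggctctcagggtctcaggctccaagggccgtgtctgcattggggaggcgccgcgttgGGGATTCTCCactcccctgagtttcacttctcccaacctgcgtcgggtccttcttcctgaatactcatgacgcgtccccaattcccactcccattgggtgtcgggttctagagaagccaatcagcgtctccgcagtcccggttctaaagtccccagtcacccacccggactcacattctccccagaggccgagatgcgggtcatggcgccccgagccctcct
B2M (chr15:44711267-44711566, plus strand): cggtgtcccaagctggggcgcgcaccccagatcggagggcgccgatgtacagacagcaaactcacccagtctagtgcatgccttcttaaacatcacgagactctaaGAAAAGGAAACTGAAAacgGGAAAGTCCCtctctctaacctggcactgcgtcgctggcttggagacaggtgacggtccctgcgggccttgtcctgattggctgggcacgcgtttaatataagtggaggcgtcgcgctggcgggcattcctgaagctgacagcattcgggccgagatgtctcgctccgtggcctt

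In the TAP1 window, kappaB matches lay at bases 179 to 188 and 273 to 282 and overlapping IRF matches at bases 117 to 126 and 123 to 132. The TAPBP window held a kappaB match at bases 195 to 204 and overlapping IRF matches at bases 231 to 240 and 237 to 246. The B2M window held the same kinds, with IRF matches at bases 107 to 116 and 113 to 122 and a kappaB match at bases 126 to 135. The HLA-B window had overlapping kappaB matches at bases 74 to 83 and 75 to 84 and no IRF match. The HLA-C window had 1 kappaB match, at bases 79 to 88, which differed from the second HLA-B match by C8T, counted from the 5′ end of that match. The TAP2 and HLA-F windows, not printed, held an IRF match and no kappaB match, and the PSMB9 window held neither. PSMB9 lies head to head with TAP1 on the opposite strand, their starts 488 bases apart, and their windows share 13 bases. In all, 5 members had a kappaB match, against 11.3% of all 35116 RefSeq windows, 5 had an IRF match, against 3.6%, and 3 (TAP1, TAPBP and B2M) had both, against 0.3%. The gamma-activated site pattern TTCNNNGAA occurred in the second TAP1 window alone (7.7% of all windows), and CCAAT, bound by NF-Y, in the windows of 6 members (34.6%). The CCAAT matches of TAP1 and PSMB9 are the same bases, in the stretch that their windows share. A match is a description of letters and does not show that a factor was bound. The lack of a match to these exact patterns does not show that a window lacks such a site.

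Levels are in the authors' scaled estimated read counts (units), with the upper quartile of the genes above 0 set to about 1000 in each library. The controls held 14230655 to 36828267 estimated reads each and the everolimus libraries 29760921 to 52522734, and 1 read was worth 0.307 to 1.05 units. By the share of low values that are whole reads 2 sets of libraries could be told apart: controls 1 to 3 with everolimus 1 and 2 (the first set), and controls 4 to 6 with everolimus 3 to 5 (the second set). The labels name no batch. Values within each set are given for the members and their ratios, and for some of the list genes. Renal markers were present, with PAX8 at 3189 ± 78.7 units (SD, n = 6) in the controls, and of the 6 such markers 3 rose and 3 fell, or 1 and 4 after quantile normalization. The MET call was lost in 7 of 11 cases with 1 library left out. Of 14 markers of leukocytes, endothelium and fibroblasts, 10 were at or under 3 reads in every library, PTPRC and CD3E among them, and of 3 tested 1 rose (NCAM1, log2 0.17) and 0 fell. Their sum, nearly all of it NCAM1, was 1075 to 1163 units in the controls and 1212 to 1297 with everolimus. The part of these markers in the results below was not tested.

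After 4 h of everolimus, transcripts of both transporter chains, of tapasin, HLA-E, PSMB9 and HLA-B rose, and those of HLA-C, HLA-F and B2M did not pass the test. With limma over all 12668 tested genes at an adjusted p under 0.05, 6 of the 9 members were higher and 0 were lower, where 27.8% of all tested genes were called higher and 27.4% lower. The median log2 fold change was 0.26 over the members and -0.01 over all tested genes. For 4 members, TAP1, TAP2, TAPBP and HLA-E, every everolimus sample lay above every control, which held for 20.3% of tested genes, and for 0 members every everolimus sample lay below every control (17.6%). The same call gave 7 members higher within the first set (24% of all genes higher, 19.3% lower), 5 within the second (21.1% and 22.5%), 5 after quantile normalization (25.6% and 31.9%), 6 after thinning to equal depth (22.5% and 30.3%) and 6 with the replicate block (25.9% and 23.6%), with 0 members lower in each. In all, 55.2% of tested genes changed, and 6.18% had an unadjusted p under 0.05 for a difference between the sets. TAP1 was the only member called higher by at least 1.5-fold, as were 6.83% of tested genes.

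**Figure D1:**
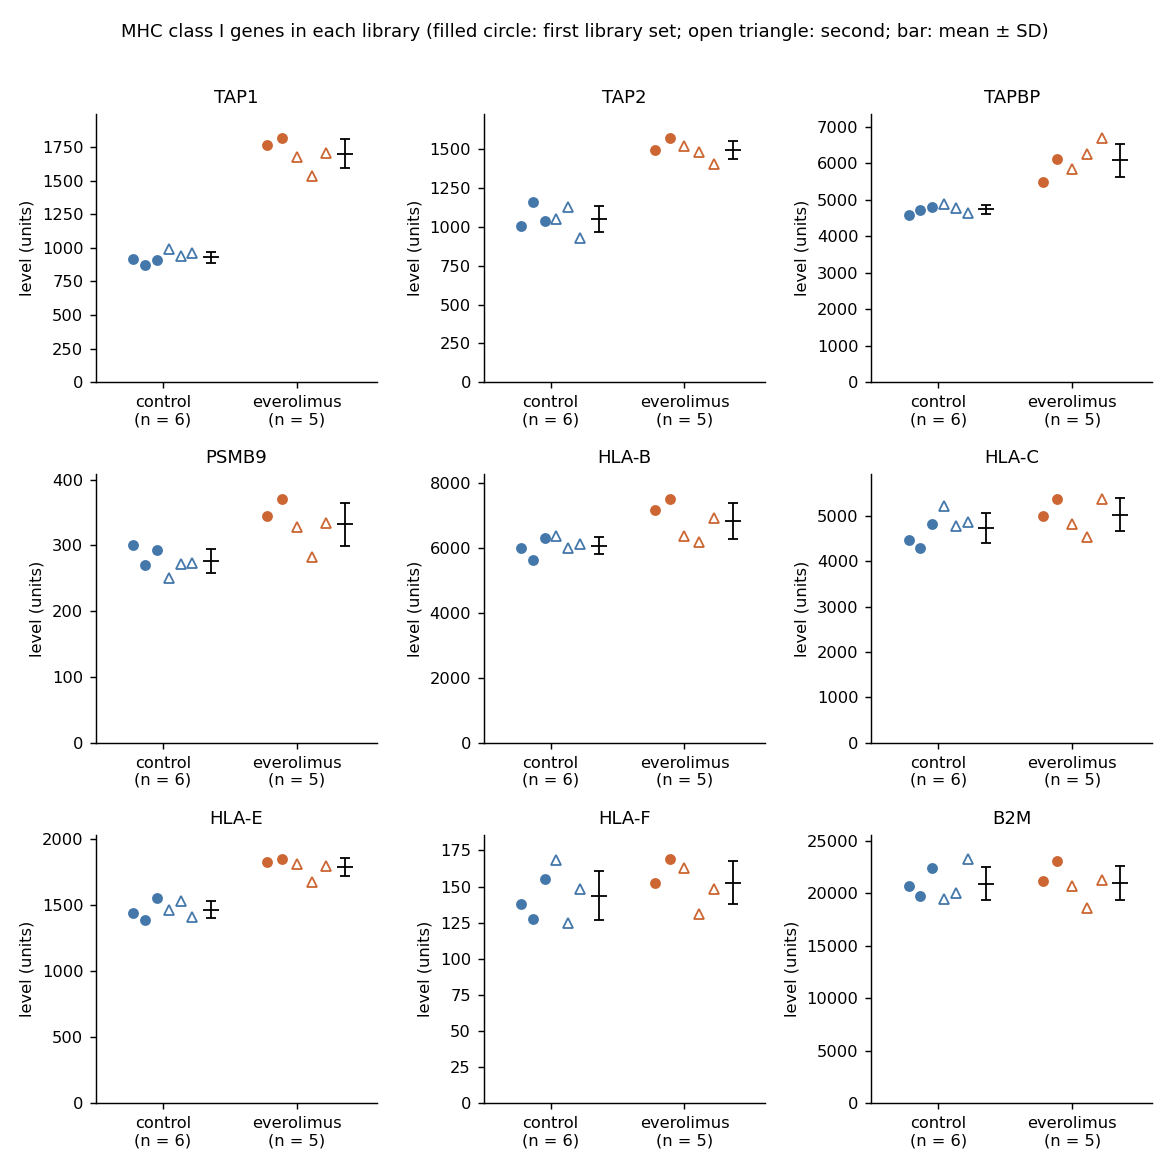
Level of each of the 9 genes in each of the 11 libraries, in units on axes that start at 0, with the mean and SD of each group beside the points. TAP1, TAP2, TAPBP and HLA-E separate the groups, while B2M covers 19412 to 23240 units in the controls and 18560 to 23034 with everolimus.

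TAP1, which with TAP2 forms the pump that carries peptides into the endoplasmic reticulum, ranged over the 6 controls from 869 to 990 units with a median of 928. The everolimus samples 1 to 5 stood at 1767, 1817, 1674, 1532 and 1704 units. The groups were far apart. TAP1 rose 1.82-fold (log2 0.87, SE 0.046, limma adjusted p = 1.17e-09), rank 497 of 12668 genes by log2 fold change. Within the sets its log2 fold change was 0.99 (first) and 0.77 (second), and it passed the test in each. The difference between the sets had an unadjusted p of 0.00998 and a limma adjusted p = 0.786.

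TAP2, the other chain of the pump, ranged in the controls from 926 to 1160 units with a median of 1043. With everolimus it stood at 1495, 1571, 1518, 1480 and 1404 units in samples 1 to 5. All 5 lay above all 6 controls. TAP2 rose 1.42-fold (log2 0.51, SE 0.053, limma adjusted p = 1.51e-06), by 0.52 (first set) and 0.51 (second set). TAP1 rose more than TAP2. The log2 ratio of TAP1 over TAP2 in the same library, which does not depend on scaling, was -0.17 ± 0.16 (SD, n = 6) in the controls and 0.18 ± 0.09 (n = 5) with everolimus. The difference of 0.36 had an adjusted p of 0.0065 in a two-sided exact permutation test, adjusted over the 6 ratios tested. The highest control and the lowest everolimus sample both stood at 0.05, so the groups lay edge to edge. Within the sets the difference was 0.47 (first) and 0.26 (second).

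TAPBP encodes tapasin, which holds the empty heavy chain at the TAP pump and edits its peptide. Its controls ranged from 4577 to 4875 units with a median of 4754. The everolimus samples stood at 5489, 6119, 5833, 6250 and 6688 units, all above the controls but more widely spread (SD 450 against 114 units). TAPBP rose 1.28-fold (log2 0.36, SE 0.043, limma adjusted p = 6.86e-06), with 0.30 and 0.39 in the sets. Against TAP1 in the same library it was lower with everolimus, by -0.51 on the log2 scale (exact permutation adjusted p = 0.0043), and by -0.69 and -0.37 within the sets.

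PSMB9 encodes the inducible catalytic subunit that takes the place of the constitutive subunit PSMB6 in the immunoproteasome. Its controls ranged from 250 to 301 units with a median of 273. The everolimus samples stood at 345, 371, 328, 282 and 334 units. The groups overlapped, because everolimus 4 lay below the highest control while the other 4 lay above it. PSMB9 rose 1.20-fold (log2 0.26, SE 0.069, limma adjusted p = 0.00504), with 0.31 (first set) and 0.24 (second set). Its log2 ratio to PSMB6 was -2.85 ± 0.086 in the controls (n = 6) and -2.53 ± 0.097 with everolimus (n = 5), a difference of 0.33 with no overlap (exact permutation adjusted p = 0.0043). That unadjusted p, 0.0022, is the smallest these 462 assignments of samples can give, and the ratio to PSMB6 differed by 0.33 (first set) and 0.34 (second set).

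Among the 4 heavy chains examined, HLA-E, a nonclassical chain that presents signal peptides of other class I chains to natural killer cell receptors, changed most. Its controls ranged from 1392 to 1557 units with a median of 1451. With everolimus it stood at 1827, 1850, 1812, 1673 and 1795 units, all above the controls. HLA-E rose 1.22-fold (log2 0.29, SE 0.038, limma adjusted p = 1.77e-05), by 0.33 and 0.26 in the sets.

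HLA-B, a classical chain for CD8 T cells, ranged in the controls from 5639 to 6357 units with a median of 6055. With everolimus it stood at 7161, 7517, 6376, 6186 and 6917 units, and everolimus 4 fell within the controls. HLA-B rose 1.12-fold (log2 0.17, SE 0.049, limma adjusted p = 0.00955). It passed within the first set at 0.30 (limma adjusted p = 0.00118) and not within the second at 0.08 (limma adjusted p = 0.287), and it was lost after quantile normalization (0.07, limma adjusted p = 0.204). The difference between the sets had an unadjusted p of 0.0127 and a limma adjusted p = 0.786.

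HLA-C, the classical chain best known as a ligand of natural killer cell receptors, ranged in the controls from 4289 to 5214 units with a median of 4792. With everolimus it stood at 5002, 5376, 4820, 4523 and 5368 units, and 2 of the 5 lay above the highest control. The log2 fold change was 0.08 (95% interval -0.03 to 0.20, limma adjusted p = 0.210). Within the first set it was 0.20 (limma adjusted p = 0.0161) and within the second -0.01 (limma adjusted p = 0.877), a difference with an unadjusted p of 0.0390 and a limma adjusted p = 0.787. HLA-F, a nonclassical chain of low level, was at 125 to 168 units in the controls and at 153, 169, 163, 131 and 148 units with everolimus. Its log2 fold change was 0.09 (95% interval -0.10 to 0.28, limma adjusted p = 0.420), with 0.20 (first set) and 0.01 (second set).

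B2M encodes beta-2-microglobulin, the light chain that every class I heavy chain needs. Its controls ranged from 19412 to 23240 units with a median of 20351. With everolimus it stood at 21165, 23034, 20642, 18560 and 21262 units, which overlapped the controls. The log2 fold change was 0.00 (95% interval -0.12 to 0.12, limma adjusted p = 0.988), which leaves room for changes up to that size in either direction. By set it was 0.08 (first) and -0.05 (second), and it was -0.13 after quantile normalization (limma adjusted p = 0.0627).

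**Figure D2:**
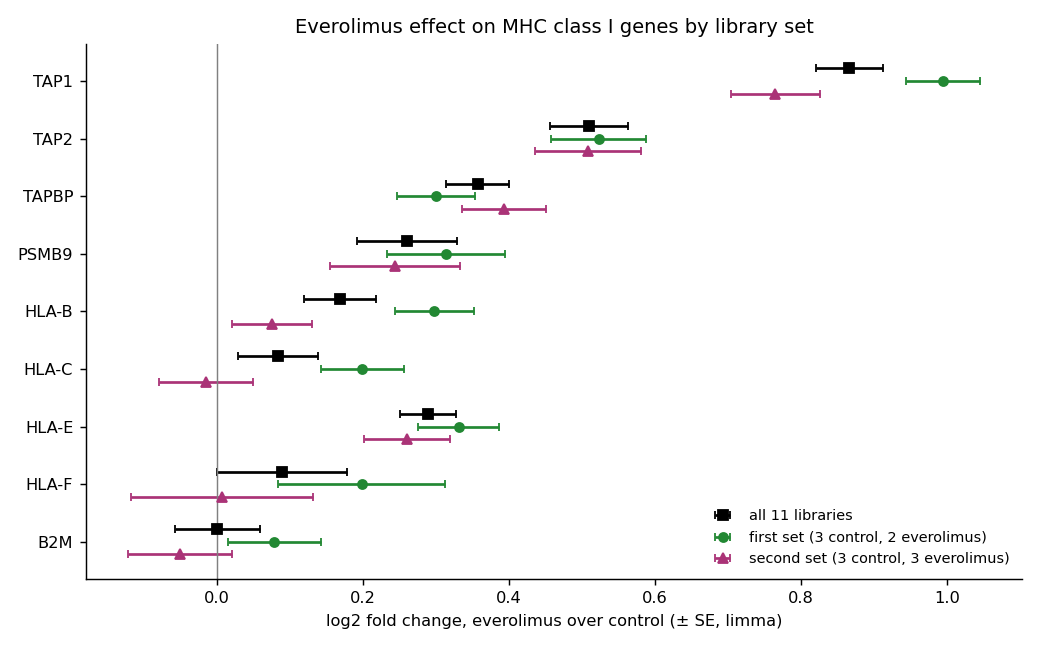
Log2 fold change with its standard error (limma) for the 9 genes over all 11 libraries and within each library set. TAP1, TAP2, TAPBP, PSMB9 and HLA-E lie above 0 in both sets, whereas HLA-B, HLA-C, HLA-F and B2M lie near 0 in the second set.

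Within-library ratios compared the chains with each other. HLA-E over HLA-C was -1.69 ± 0.092 on the log2 scale in the controls (n = 6) and -1.48 ± 0.072 with everolimus (n = 5). That difference of 0.21 came without overlap (exact permutation adjusted p = 0.0043), and it was 0.13 within the first set and 0.28 within the second. HLA-B over HLA-C differed by 0.09 and B2M over the sum of HLA-B and HLA-C by -0.13 (exact permutation adjusted p = 0.0411 for each), with overlapping groups. By set they differed by 0.10 and 0.09, and by -0.18 and -0.09. Without 1 library the HLA-B over HLA-C call was lost in 7 of 11 cases (adjusted p up to 0.0857 in the exact permutation test) and the B2M call in 9 of 11 (up to 0.0857). HLA genes share long stretches of sequence, and 1 of them differed widely between the library sets. The pseudogene HLA-H, near-identical in parts to other HLA genes, stood at 3.8 to 20.4 units in libraries of the first set, against 764 to 986 units in the second. HLA-B over HLA-C was 0.39 to 0.43 in the controls of the first set and 0.29 to 0.33 in those of the second. Levels of single HLA genes are therefore uncertain.

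**Figure D3:**
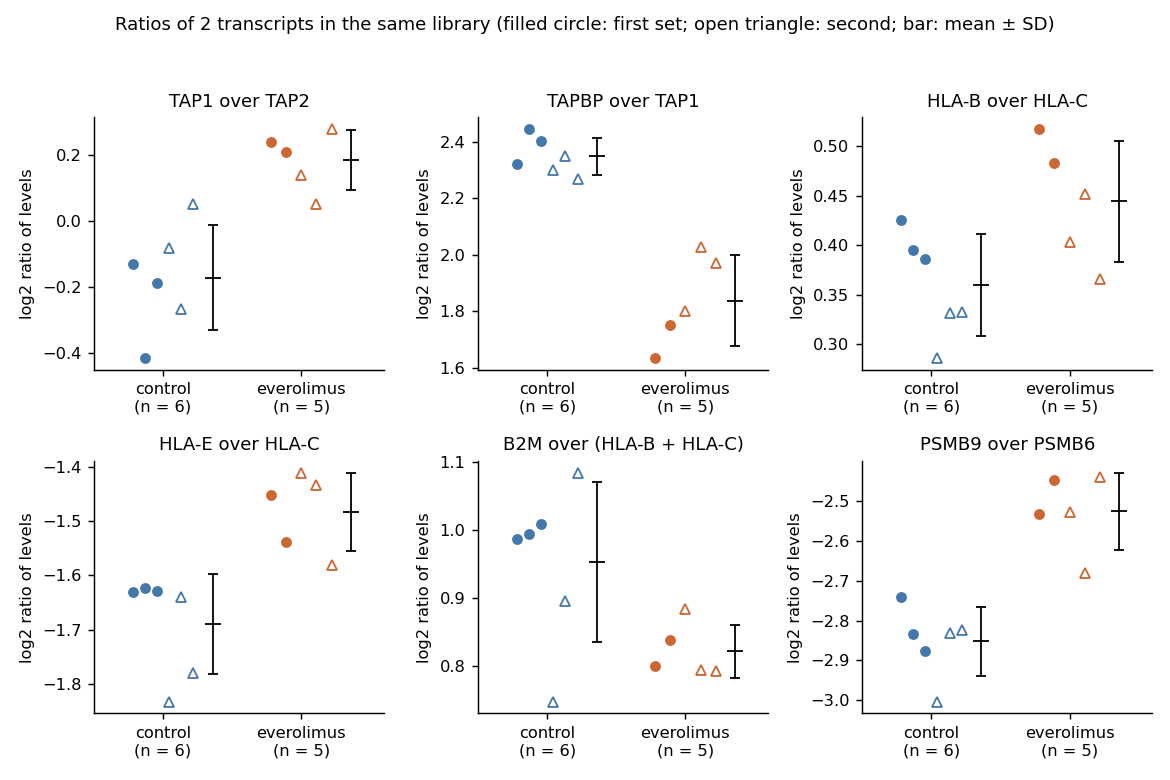
Log2 ratio of 2 transcripts (or of B2M to the sum of HLA-B and HLA-C) in each library, with the mean and SD of each group; the axes do not start at 0. TAPBP over TAP1, HLA-E over HLA-C and PSMB9 over PSMB6 separate the groups, TAP1 over TAP2 touches at 0.05, and the other 2 ratios overlap.

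Beyond the members, genes of peptide loading and trimming were mostly higher. Of the 12 in that list, which includes TAP1, TAP2 and TAPBP, 11 rose and 0 fell, with a median log2 fold change of 0.24, where 27.8% of all tested genes rose. TAPBPL, a second peptide editor, rose from 129.5 ± 9.76 to 183.0 ± 4.86 units (log2 0.50, SE 0.062, limma adjusted p = 8.84e-06). ERAP1, which trims peptides inside the endoplasmic reticulum, rose by 0.46 (SE 0.046). The chaperones CALR (0.23) and CANX (0.25) of the loading complex rose too. HM13, which frees the signal peptides shown by HLA-E, was at -0.01 (limma adjusted p = 0.903). The small rises of ERAP2 (0.08), UGGT1 (0.12), GANAB (0.11) and PDIA3 (0.14) did not pass after quantile normalization, where 7 of the 12 rose. The count was 8 after thinning to equal depth, 9 within the first set and 8 within the second. It was 9 with the replicate block, where ERAP2 (limma adjusted p = 0.0720) and UGGT1 (limma adjusted p = 0.113) did not pass. ERAP2 passed within neither set (limma adjusted p = 0.0769 and 0.337). With 1 library left out, the ERAP2 call was lost in 7 of 11 cases and the UGGT1 call in 4.

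The immunoproteasome and its activator were covered by 6 genes, of which 2 rose and 0 fell, a share near the 27.8% of all tested genes. These were PSMB9 and PSME2 (0.15, SE 0.046), a subunit of the activator PA28. PSME2 did not pass within the second set (0.10, limma adjusted p = 0.215) or after thinning (0.11, limma adjusted p = 0.0548). Within the second set 1 of the 6 rose (PSMB9) and 1 fell (POMP, an assembly chaperone, at -0.16), and within the first set 3 rose. The other inducible catalytic subunits, PSMB8 (-0.08, limma adjusted p = 0.277) and PSMB10 (0.21, limma adjusted p = 0.0923), did not pass over all libraries, and PSMB10 passed within the first set (0.41, limma adjusted p = 0.00755). Of the 3 constitutive catalytic subunits PSMB5, PSMB6 and PSMB7, 0 rose and 0 fell, and the list's median was 0.00. PSMB6 passed as lower after thinning (-0.10, limma adjusted p = 0.0470). In the other direction, 1 of the 3 passed as higher within the first set, after centring, with the library set as a covariate and without everolimus 4. The difference between the lists was not tested.

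Of 12 known regulators of class I transcription, 7 rose and 1 fell, with a median of 0.30. Over all tested genes 27.8% rose and 27.4% fell. IRF1, which binds IRF sites of class I genes, stood at 604 to 663 units in the controls and at 1449, 1445, 1414, 1313 and 1440 units with everolimus (log2 1.18, SE 0.038, limma adjusted p = 6.57e-12). The NF-kappaB subunits NFKB1 (1.07) and RELA (0.60) rose, as did IRF2 (0.81, SE 0.061). RFX5, the DNA-binding subunit of the RFX complex, rose by 0.56 (SE 0.042), and NLRC5, the transactivator of class I genes, by 0.30 (SE 0.069), from 262.9 ± 24.1 to 324.6 ± 24.0 units. RFXAP, another RFX subunit, fell by 0.46 on the log2 scale, a call lost within the first set (-0.25, limma adjusted p = 0.0929). RFXANK and the subunits NFYA, NFYB and NFYC of NF-Y did not pass.

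Of 6 genes of interferon gamma receptor signalling, 4 rose and 0 fell, with a median of 0.24, where 27.8% of all tested genes rose and 27.4% fell. IFNGR2, the signalling chain of the receptor, rose from 522.1 ± 14.2 to 1627 ± 55.7 units (log2 1.64, SE 0.035, limma adjusted p = 7.82e-14). SOCS1, a feedback inhibitor of JAK kinases, was at 7.35 ± 1.67 units in the controls and 27.9 ± 6.64 units with everolimus. It met the filter of 10 units in 5 samples through the everolimus samples, where it was high, and the highest control stood at 10.04 units. Its log2 fold change was 1.78 with the filter and 1.78 with no filter (limma adjusted p = 3.93e-06 with no filter). At a filter of 100 units, where it was not tested, 3 of 5 genes rose (median 0.22). JAK1 (0.27) and the receptor chain IFNGR1 (0.22) rose, IFNGR1 not passing within the second set (0.15, limma adjusted p = 0.141), and JAK2 (0.14, limma adjusted p = 0.108) and PTPN2 did not pass.

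**Figure D4:**
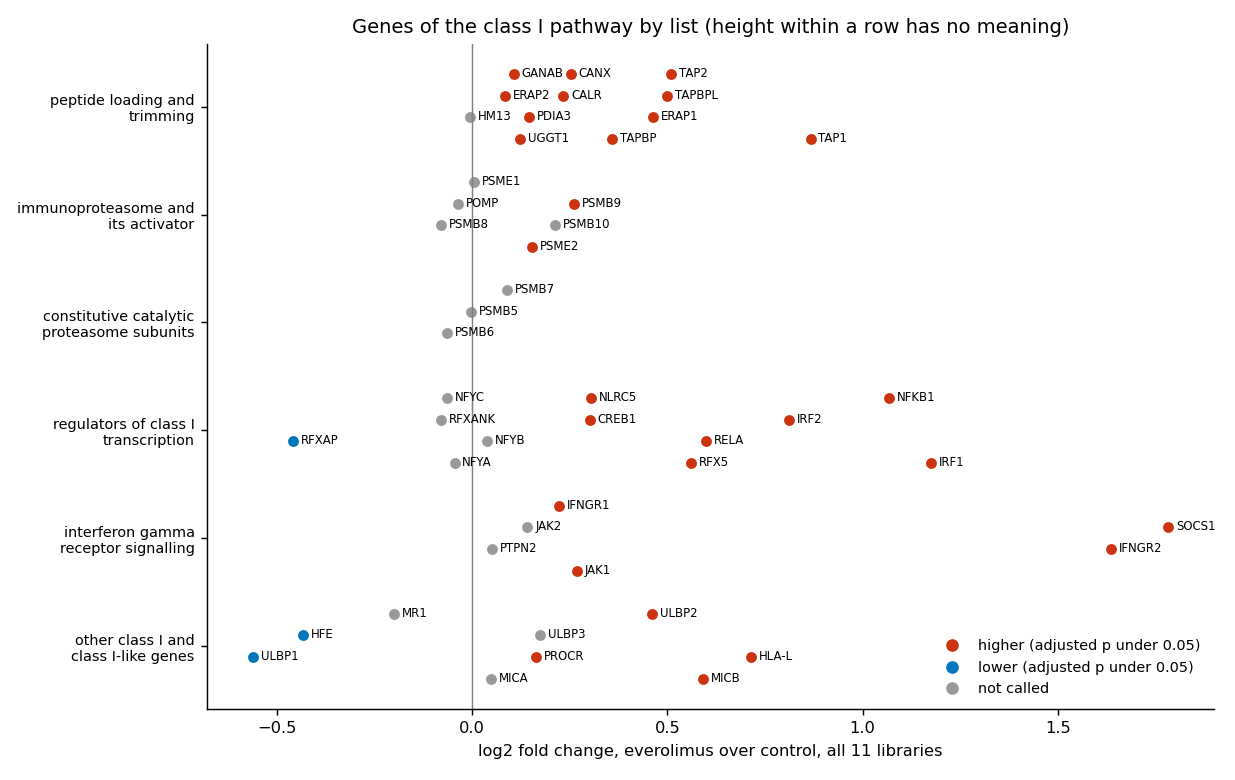
Log2 fold change over all 11 libraries for the tested genes of 6 class I pathway lists, coloured by the limma call; HLA-H, which differs between library sets, is left out. IFNGR2 at 1.64, IRF1 at 1.18 and NFKB1 at 1.07 lie to the right of TAP1 at 0.87, and RFXAP at -0.46 lies to the left of 0.

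Of 18 other class I and class I-like genes, 10 were tested, 4 rose and 2 fell, with a median of 0.17. Those shares compare with 27.8% of all tested genes that rose and 27.4% that fell. The 10 tested genes, and so the median, include HLA-H, whose level differed widely between the library sets. The NKG2D ligand genes MICB (0.59, SE 0.086) and ULBP2 (0.46, SE 0.044) rose while ULBP1 fell (-0.56, SE 0.165) but did not pass in the second set (-0.38, limma adjusted p = 0.190). HFE, a class I-like regulator of iron uptake, was lower by -0.43 (log2), and the HLA-L pseudogene rose by 0.72 from 17.5 ± 3.22 units, a call lost within the first set (limma adjusted p = 0.0597). PROCR, the endothelial protein C receptor, rose by 0.16 and did not pass in the second set (0.08, limma adjusted p = 0.379). MICA was at 0.05 (limma adjusted p = 0.421).

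Class II genes, which mark professional antigen presenting cells, were mostly near the detection floor, apart from CD74. Of 13 such genes 6 were at or under 3 reads in every library, HLA-DRA and HLA-DRB1 among them, and 2 were tested. CD74, the invariant chain, was at 272.0 ± 9.86 and 293.6 ± 25.5 units (log2 0.11, limma adjusted p = 0.138). HLA-DMA fell from 20.1 ± 4.25 to 10.6 ± 2.07 units (log2 -0.86, SE 0.187, limma adjusted p = 0.00129), a call lost after thinning to equal depth (limma adjusted p = 0.0586). It met the filter through the controls, where it was high.

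The 3 non-member genes whose profile over the 11 samples was most like that of TAP1, by the root mean square difference of log2 values from the control mean, were CD40 (0.047), TPRA1 (0.069) and SPRYD3 (0.069). CD40, a receptor of the TNF receptor family, went from 430.3 ± 20.5 to 785.9 ± 46.1 units (log2 0.87, SE 0.048). A log2 fold change close to that of TAP1 follows from the way these genes were chosen.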

How the data were processed

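RNA of 11 samples of 786-0 cells (6 control, 5 everolimus, 4 h) was measured; per the labels' protocols the libraries came from a stranded mRNA kit. Sample titles gave the groups and the replicate numbers. The authors deposited 1 table of 20500 entries whose values are a signal, scaled to an upper quartile (percentile 75) of 999.57 to 1001.05 of the values above 0, and 0 columns were left unused. The submitters' processing notes name hg19, Picard 1.64, SAMtools and RSEM, without roles; the sources used here do not give the aligner, the annotation or the use of strand. RSEM estimates counts and divides ambiguous reads between genes, which bears on the HLA genes. Low values lay on multiples of 1 read, taken as the most frequent value above 0; 89.4% to 93.9% of values up to 200 reads were whole within 0.1 reads (first set 89.4% to 90.3%, second set 93.4% to 93.9%), so no count model was used. A floor of 3 reads was 0.92 to 3.15 units and covers counting error only.

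Genes were compared on log2(value + 1) with limma 3.58.1 (R 4.3.3, intensity trend on), over genes of at least 10 units in at least 5 samples, two-sided, adjusted by Benjamini and Hochberg over all 12668 genes at 0.05; fold changes are on that scale and understate those of low genes. It was tested on simulated data. Ratios within a library were tested by exact permutation over 462 assignments of samples, adjusted over 6 ratios. Errors are SD over samples, or SE where named. The members, lists, ratios and rules were chosen with earlier results of these data known. Of each list, up to 3 called genes with the largest rise and 3 with the largest fall were to be named; further list genes were named after their values were seen, and some genes are not reported here. The profile likeness took non-member genes at or above the median mean log2 level (8.98). Alternatives were pseudocounts of 0.1 and 10, no filter and a filter at 100 units, quantile normalization, centring, thinning each library to 14230661 reads, limma without trend, the library set as a covariate and within each set, the replicate block, and each replicate left out.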

Additional observations from a re-analysis of the deposited data

How the results depend on the processing

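Of the 9 members, TAP1, TAP2, TAPBP, HLA-E, PSMB9 and HLA-F kept their sign and their side of the threshold under all 23 alternatives. The count of members higher was 6, but 5 after quantile normalization, 7 within the first library set and 5 within the second, and 0 were lower under each. HLA-C turned to -0.0145 within the second set. B2M, not called, turned to -0.131 after quantile normalization, -0.0363 after thinning and -0.0497 within the second set; leaving out 1 library gave -0.0342 to 0.0437. The count of all genes changed was 6997, and 6431 to 7104 with 1 library left out. The difference of the effect between sets was called for 0 genes (783 at an unadjusted p under 0.05), and for 1 gene after quantile normalization and 1 after centring. The ratio of TAPBP over TAP1 differed by -0.6947 within the first set and -0.3727 within the second, where no permutation p can go below 0.1. Leaving out 1 library gave 0.0667 to 0.1047 for HLA-B over HLA-C and -0.1727 to -0.1052 for B2M over HLA-B and HLA-C. Of the 35 called list genes 21 kept sign and call throughout; GANAB (-0.0199), MET (-0.00322) and VIM (-0.211) turned sign after quantile normalization. Whether samples of the same replicate number were paired is not known. Same-numbered deviations from the group means correlated at 0.603, 0.422, -0.508, 0.336 and 0.351, and 1 of 5 everolimus samples was closest to its own number. The negative value belongs to number 3, with its control in the first set and its everolimus sample in the second. The library set was not removed from the deviations, so they cannot decide on pairing. With the replicate block 6271 genes were called and 6 members were higher; ratios had no p below 0.0625 there. The causes of these changes were not tested. Each member had at least 160 estimated reads in each library. Thinning moved HLA-F from 0.09 to 0.14, HLA-C from 0.08 to 0.06 and HLA-E from 0.29 to 0.22.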
